A study of Mus musculus and Mus musculus
Rattus norvegicus with 30 samples.

Results

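The genes described here are 10 germline genes, Dazl, Ddx4, Mael, Piwil2, Sycp1, Sycp3, Hormad1, Stra8, Tex101 and Dppa3. They were chosen by name, as genes of the germline that are known to be kept silent in other cells by DNA methylation of their promoters. Stra8 was also chosen because it was already known to be among the largest differences between mutant Cdx2 lines and rCdx2-OE cells in these data, so that contrast is described below without a test. All 10 were found in each RNA-seq count table, among 19919 and 34923 genes in the tables of the first and second mESC replicates, 34923 genes on the mouse allele of RMES cells and 25245 genes on their rat allele.

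The study asked whether mouse and rat Cdx2, a homeodomain transcription factor of the trophoblast lineage, act alike when they are expressed in ES cells. Constructs were delivered by lentivirus and expressed under doxycycline control. In mESCs, RNA-seq covered 20 libraries, with 2 each of WT, mCdx2-OE (mouse Cdx2), rCdx2-OE (rat Cdx2) and 7 mutants of rCdx2 that carry mouse residues in the DNA-binding domain. In RMES cells, hybrid ES cells that hold 1 mouse and 1 rat set of chromosomes, RNA-seq covered 2 WT libraries, 1 mCdx2-OE library and 1 rCdx2-OE library, with reads assigned to either genome. The mutants are R1 (tyrosine to phenylalanine), R2 (alanine to serine), R3 (deletion of an asparagine) and their combinations R12, R13, R23 and R123, and the changes are called change 1, 2 and 3 below. ATAC-seq was from 1 WT and 1 mCdx2-OE mESC library, and Cdx2 ChIP-seq from 1 mCdx2-OE and 1 rCdx2-OE library of mESCs and the same of RMES cells. Whether WT cells carried an uninduced construct is not given in the labels, nor is whether the 2 libraries of a condition came from separate cultures, so p-values measure the spread between libraries, which may be technical.

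Most of these genes act at successive stages of germ cell life, from primordial germ cells to meiosis. In most other cells the promoters of many germline genes, often CpG-rich, are methylated or bound by the PRC1.6 complex. That complex recognises E-box and E2F6 sites through MGA, MAX and E2F6. Naive ES cells have little DNA methylation, and several germline genes are transcribed in them at low levels.

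Promoter sequences are shown first, to describe how dense CpG was in each. DNA methylation was not measured. RefSeq promoters (GRCm38.p6, 250 bases before to 50 bases after the start) had an entry for 8 of the 10 genes, and Piwil2 and Dppa3 had none. The CpG observed over expected ratio had a median of 0.746 over these 8, against 0.384 over 32841 promoters with an upper quartile of 0.750. GC content had a median of 62.7% against 52.7%. Ddx4 was the densest at 0.978, followed by Sycp1 at 0.874, Dazl at 0.795, Mael at 0.780, Hormad1 at 0.713, Tex101 at 0.700 and Sycp3 at 0.666. Stra8 stood lowest of the 8 at 0.430, close to the median of all promoters. The 250 bases before the start are printed 5′ to 3′ on the gene's strand with every CpG in capitals for Stra8 (chr6:34920698-34920947, plus strand, 5 CpGs), Dazl (chr17:50293621-50293870, minus strand, 20 CpGs), Sycp1 (chr3:102936101-102936350, minus strand, 17 CpGs) and Tex101 (chr7:24672051-24672300, minus strand, 14 CpGs).
Stra8: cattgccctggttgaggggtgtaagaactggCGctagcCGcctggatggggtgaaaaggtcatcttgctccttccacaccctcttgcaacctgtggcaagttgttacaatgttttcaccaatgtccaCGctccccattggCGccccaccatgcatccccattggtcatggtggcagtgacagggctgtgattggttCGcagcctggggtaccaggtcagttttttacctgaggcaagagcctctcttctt
Dazl: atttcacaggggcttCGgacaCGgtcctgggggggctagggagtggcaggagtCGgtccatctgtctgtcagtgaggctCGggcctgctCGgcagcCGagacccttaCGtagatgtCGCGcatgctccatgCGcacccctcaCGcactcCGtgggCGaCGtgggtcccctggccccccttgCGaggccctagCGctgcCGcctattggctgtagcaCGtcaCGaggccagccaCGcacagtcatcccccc
Sycp1: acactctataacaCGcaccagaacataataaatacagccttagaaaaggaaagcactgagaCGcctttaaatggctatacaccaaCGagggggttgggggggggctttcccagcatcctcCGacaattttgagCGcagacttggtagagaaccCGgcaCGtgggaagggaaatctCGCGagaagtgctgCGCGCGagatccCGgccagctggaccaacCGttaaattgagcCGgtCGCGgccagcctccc
Tex101: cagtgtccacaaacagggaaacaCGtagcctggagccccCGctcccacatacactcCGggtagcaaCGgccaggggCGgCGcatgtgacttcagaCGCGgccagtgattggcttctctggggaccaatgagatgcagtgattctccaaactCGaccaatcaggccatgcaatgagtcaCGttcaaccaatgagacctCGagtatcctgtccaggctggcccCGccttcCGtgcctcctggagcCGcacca

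Motifs were searched on both strands of the same promoter windows. The E-box CACGTG was in 5 of 8 promoters against 7.15% of all promoters, starting at -29 in Ddx4, -94 in Sycp1, -64 and -43 in Sycp3, -223 in Mael, and -57 and -20 in Hormad1, counted from the gene start. The E2F6 motif GCGGGAA was in 3 of 8 against 4.60% of all, at -136 in Ddx4, -147 in Sycp3 and -95 in Hormad1, so these 3 promoters held both motifs and no 2 of the matches overlapped. Neither was in the Stra8, Dazl or Tex101 window. The Cdx motifs TTTATTG and TTTATGG and the retinoic acid receptor repeat, a pair of AGGTCA half-sites in direct orientation with 5 bases between them, were in none of the 8 windows, against 4.60%, 2.75% and 0.00913% of all promoters. The E-box and the E2F6 motif each contain a CpG, and CpG was denser in these promoters than at the median of all promoters. Shares among promoters of like CpG density were not computed. A match is a description of the letters and not evidence of binding.

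Library totals in the mESC tables ran from 74960057 to 94686029 counts in WT and from 12698443 to 24315929 in the 18 libraries with a construct, so low genes were measured more precisely in WT. Cdx2 itself was at 1.36 and 1.21 CPM in WT mESCs, 97.9 and 127 in mCdx2-OE, 70.4 and 67.0 in rCdx2-OE, and 37.2 to 147 in the mutants. In RMES cells the Cdx2 reads went against the labels, since the libraries labelled WT held 129 and 127 CPM on the mouse allele and 453 and 440 on the rat allele. On the mouse allele the mCdx2-OE library held 968 CPM and the rCdx2-OE library 4.45, and on the rat allele 47.2 and 880. Cdx2 was not called between groups on the mouse allele (log2 fold change 1.93, edgeR adjusted p = 0.136) or on the rat allele (0.06, adjusted p = 0.942). The libraries with a construct lay far apart on each allele, so this test cannot show whether Cdx2 was higher with a construct. Because of the Cdx2 reads in them, the libraries labelled WT are called the RMES libraries labelled WT below. Trophoblast stem cell markers differed between these libraries and those with a construct. Summed without Cdx2, they were at 221 to 228 CPM against 1073 to 1212 CPM with a construct on the mouse allele. On the rat allele they were 376 to 394 against 1026 to 1136.

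In WT mESCs all 10 genes were detected, and per length they spanned a wide range. Dppa3, which codes for Stella, a protein of naive pluripotent and germ cells that protects DNA methylation in the zygote, was highest at 49.4 ± 0.41 RPKM (SD, n = 2). Stra8, the retinoic acid induced gatekeeper of meiosis, came next at 32.4 ± 0.55 RPKM, ahead of Hormad1 at 13.6 ± 0.43. Dazl (3.95 ± 0.03), Sycp3 (3.38 ± 0.31), Ddx4 (2.93 ± 0.20), Mael (2.62 ± 0.10) and Piwil2 (2.13 ± 0.18) lay close together. Sycp1 (0.804 ± 0.0015) and Tex101 (0.301 ± 0.06) were lowest. In this order the intervals of 1 SD overlapped between Sycp3 and Ddx4, and the other neighbours lay apart, Ddx4 and Mael only just. RPKM is used only to order the genes within WT, and levels below are in CPM, which compares 1 gene between libraries.

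**Figure D1:**
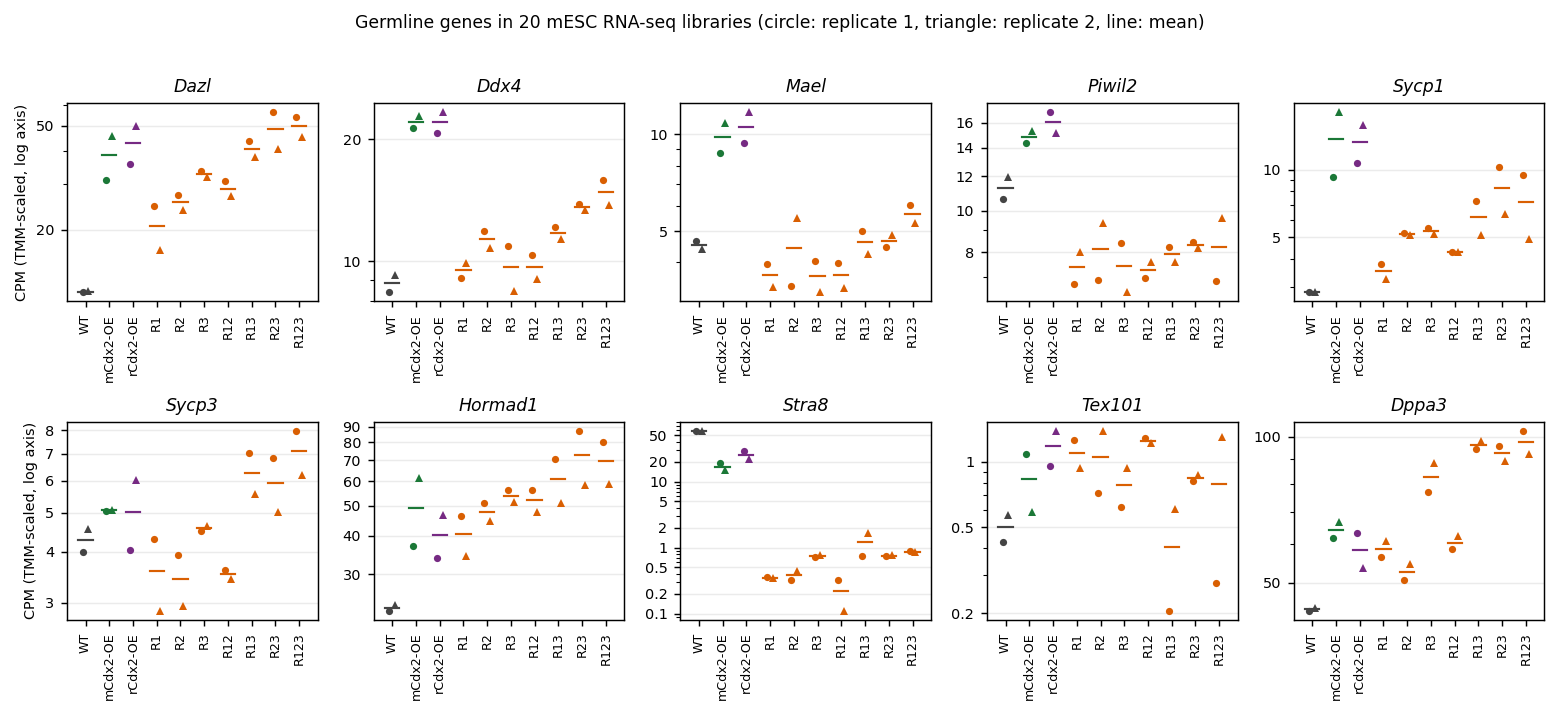
Levels of the 10 genes in 20 mESC libraries, in CPM on a log axis, with 1 point per library (circle for replicate 1, triangle for replicate 2) and a line at the mean of each condition. Stra8 falls from 57.7 and 59.1 CPM in WT to between 0.111 and 1.67 in the 14 mutant libraries, while Dazl lies above WT in every library with a construct.

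In mCdx2-OE mESCs 5 of the 10 genes were higher than in WT and 1 was lower, at an adjusted p under 0.05 and a fold change over 2. Dazl, Ddx4, Mael, Sycp1 and Hormad1 rose, and Stra8 fell. Over all 16000 genes tested, 18.4% were called higher and 15.0% lower. The median log2 fold change of the 10 genes was 0.92, against -0.03 for all genes. RNA was from bulk cells, so fewer cells with a transcript and less transcript per cell cannot be told apart.

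Among the RNA-binding proteins, Dazl (chr17:50279395-50293636 in mm10), a translational regulator that germ cells need, was at 11.6 and 11.7 CPM in WT and at 31.2 and 45.9 in mCdx2-OE. Ddx4 (chr13:112598333-112652475), the Vasa helicase of germ granules, was at 8.39 and 9.26 in WT and at 21.2 and 22.8 in mCdx2-OE. Neither gene's groups overlapped. Dazl rose by 1.72 on the log2 scale (SE 0.21, edgeR adjusted p = 1.93e-06) and Ddx4 by 1.31 (SE 0.12, adjusted p = 8.82e-08).

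The piRNA pathway, which silences transposons in germ cells, was represented by Mael and Piwil2. Mael (chr1:166201201-166238747), a nuage protein of piRNA biogenesis, was at 4.66 and 4.41 CPM in WT and 8.74 and 10.9 in mCdx2-OE. It rose by 1.10 on the log2 scale (SE 0.18, edgeR adjusted p = 4.09e-05), and without the second mCdx2-OE library its fold was under the threshold at 0.94. Piwil2 (chr14:70372477-70429383), a Piwi protein that loads piRNAs, was at 10.6 and 11.9 CPM in WT and 14.4 and 15.3 in mCdx2-OE, and its difference of 0.39 (adjusted p = 0.0321) stayed under the fold threshold although the libraries did not overlap.

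Sycp1 and Sycp3 build the synaptonemal complex, which pairs homologous chromosomes in meiosis, and Hormad1 marks the unpaired chromosome axes. Sycp1 (chr3:102818499-102936100), the transverse filament, was at 2.86 and 2.86 CPM in WT and at 9.28 and 18.0 in mCdx2-OE. This was the largest rise of the 10 genes, at 2.23 on the log2 scale (SE 0.30, edgeR adjusted p = 6.49e-06), and the mCdx2-OE libraries differed from each other by more CPM than the lower one differed from WT. Sycp3 (chr10:88459569-88473236), the lateral element, was at 4.0 and 4.56 CPM in WT and 5.06 and 5.07 in mCdx2-OE, a difference of 0.24 that was not called (95% interval -0.17 to 0.65, adjusted p = 0.314). Hormad1 (chr3:95559677-95587671) was at 22.9 and 24.0 in WT and at 37.0 and 61.5 in mCdx2-OE. It rose by 1.06 (SE 0.24, adjusted p = 0.00107), and without the second mCdx2-OE library its fold was under the threshold at 0.65.

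Stra8 (chr6:34920163-34939344) moved the other way. It was at 59.1 and 57.7 CPM in WT and at 18.8 and 15.0 in mCdx2-OE, with no overlap. It fell by 1.78 on the log2 scale (SE 0.17, edgeR adjusted p = 9.00e-08). Tex101 (chr7:24668007-24676675), a germ cell surface protein, was the least expressed and rested on 30 and 50 counts in WT. It was at 0.425 and 0.571 CPM in WT and 1.09 and 0.585 in mCdx2-OE, and its difference of 0.79 was not called (95% interval -0.16 to 1.74, adjusted p = 0.157). Dppa3 (chr6:122626410-122630272) was at 43.8 and 44.3 in WT and at 61.8 and 66.8 in mCdx2-OE. The difference of 0.54 (SE 0.09, adjusted p = 6.67e-05) was small against the fold threshold, with no overlap.

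Rat Cdx2 was compared with the same WT libraries, which all mESC comparisons with WT share. Of the 9 genes tested, 5 rose (19.0% of all genes) and none fell (15.4% of all genes). Dazl was at 35.8 and 50.1 CPM in rCdx2-OE, a rise of 1.87 on the log2 scale (SE 0.21, edgeR adjusted p = 7.00e-07). Ddx4 at 20.7 and 23.3 CPM rose by 1.31, Mael at 9.42 and 11.7 by 1.21, and Sycp1 at 10.7 and 15.8 by 2.19. Tex101 at 0.961 and 1.39 CPM rose by 1.18 (SE 0.47, adjusted p = 0.0342), and leaving out either rCdx2-OE library or the first WT library ended this call (0.93 to 1.46). Hormad1 at 33.9 and 46.8 CPM differed by 0.77, Piwil2 at 16.9 and 15.1 by 0.51 and Dppa3 at 63.3 and 53.6 by 0.41, all under the fold threshold. No gene was called lower, with 0 at an unadjusted p under 0.05 and 0 by DESeq2, but Stra8 was left out of this test because rCdx2-OE libraries entered its choice. Stra8 was at 29.5 and 21.7 CPM in rCdx2-OE, below both WT libraries and above both mCdx2-OE libraries.

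Between mouse and rat Cdx2 none of the 9 genes tested was called by edgeR, with 0 at an unadjusted p under 0.05 and 0 by DESeq2, where 0.0187% of all genes were. The 95% intervals bound the difference rather than show that the proteins act alike. Libraries were not paired by replicate number here, although same-numbered deviations of these conditions correlated at 0.45. Dppa3 had the tightest, at 0.13 on the log2 scale (-0.05 to 0.32), and Ddx4 lay at 0.00 (-0.24 to 0.24). Dazl lay at -0.15 (-0.56 to 0.25) and Mael at -0.11 (-0.46 to 0.25). Sycp1 (0.04, -0.54 to 0.62) and Tex101 (-0.39, -1.39 to 0.62) were less certain.

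The 7 mutants of rCdx2 split the genes. Dazl was at 16.8 CPM in the lowest mutant library, 32.8 at the median and 56.4 in the highest, all above WT. Hormad1 ran from 34.4 through 53.7 to 87.4 and Dppa3 from 50.7 through 82.7 to 103, also all above WT. Piwil2 ran from 6.47 through 7.79 to 9.59, below both WT libraries. Ddx4 (8.47, 11.1 and 15.9), Mael (3.23, 4.15 and 6.05), Sycp3 (2.86, 4.57 and 7.98) and Tex101 (0.206, 0.904 and 1.39) overlapped WT. Sycp1 (3.26, 5.14 and 10.3) lay above WT in all 14 libraries. The share of all genes with 14 mutant libraries on 1 side of WT was not computed. At an adjusted p under 0.05 and any fold, edgeR called 60.8% (R1) to 66.8% (R123) of all genes in single mutants. Such calls are not the same measure as a lack of overlap over 14 libraries. Without a share for that measure, the lack of overlap with WT is not read as a result about these genes.

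Each mutant was then tested against WT over the 9 genes without Stra8. In R1 none was called higher (10.1% of all genes) or lower (13.1%), with 4 and 1 at an unadjusted p under 0.05 in edgeR and 0 by DESeq2. Dazl and Hormad1 were called higher in R2 (10.6% of all genes) and R3 (12.2%), and these with Tex101 in R12 (10.6%). Dazl, Hormad1, Sycp1 and Dppa3 were called higher in R13 (13.6%), R23 (13.8%) and R123 (14.0%). None was called lower in R2, R3, R12, R13, R23 or R123, where 12.8%, 13.5%, 13.1%, 14.2%, 14.9% and 14.9% of all genes were, with 0 by DESeq2 and 1 gene, Piwil2, at an unadjusted p under 0.05 in each. In R123, Dazl rose by 2.10 on the log2 scale (SE 0.21, edgeR adjusted p = 3.05e-07), Hormad1 by 1.57 (SE 0.25, adjusted p = 3.58e-05), Sycp1 by 1.32 (SE 0.32, adjusted p = 0.00184) and Dppa3 by 1.15 (SE 0.09, adjusted p = 2.58e-08). At an adjusted p under 0.05 and any fold, 69.7% of all genes were called in mCdx2-OE, 70.6% in rCdx2-OE, and 60.8%, 60.9%, 63.7%, 61.7%, 65.5%, 66.5% and 66.8% in R1, R2, R3, R12, R13, R23 and R123. The Piwil2 differences ran from -0.63 in R12 to -0.44 in R23, all under the fold threshold. Some calls rested on 1 library. Dazl was called in R1 without the second R1 library (1.09), and Hormad1 was lost in R2 without the first WT library (0.99) or the first R2 library (0.92). Sycp1 was lost without the first library in R13 (0.84) and in R123 (0.78), and Tex101 was lost in R12 without either R12 library or the first WT library (1.12 to 1.36).

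**Figure D2:**
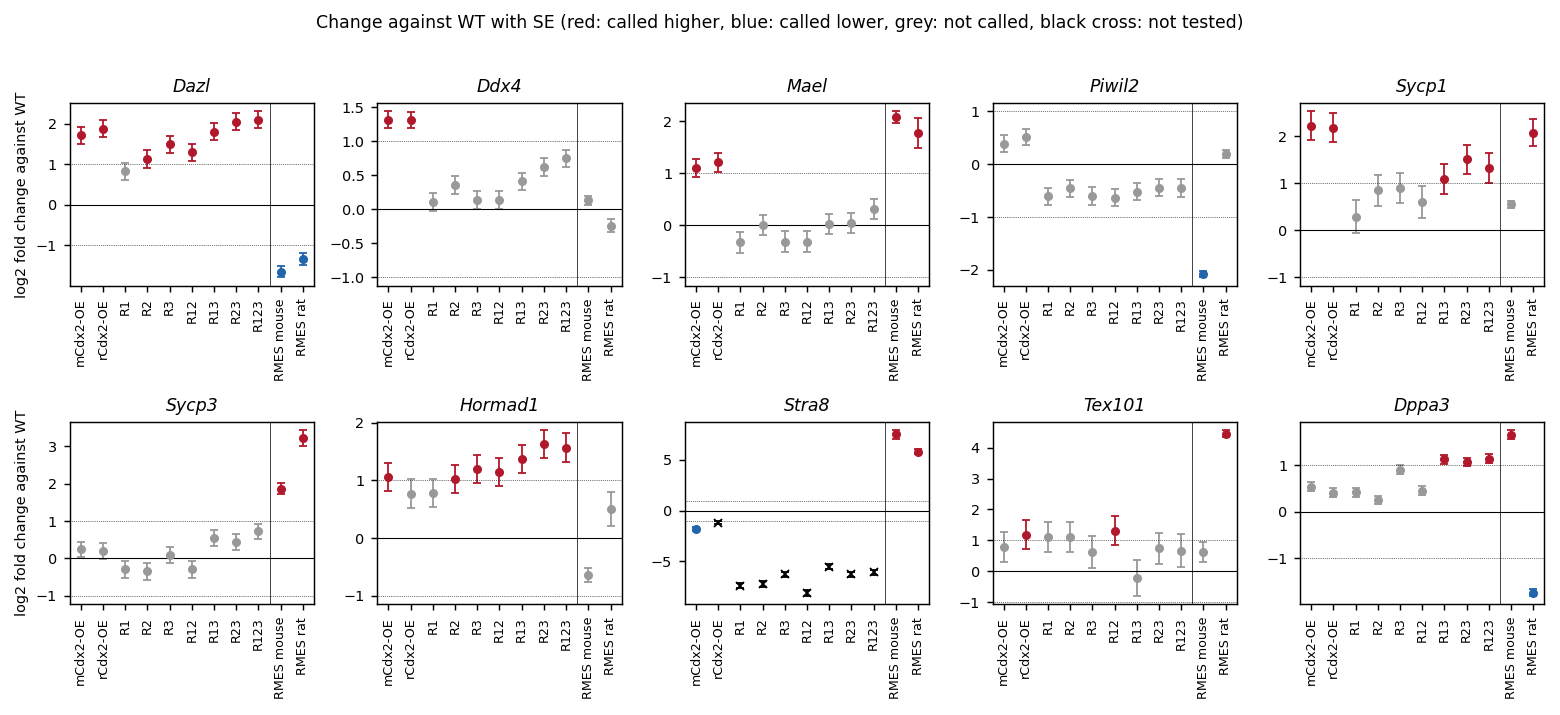
Log2 fold change against WT with its SE for each gene in 9 mESC comparisons and on both alleles of RMES cells, with dotted lines at the fold threshold. Red points were called higher, blue lower, grey not called, and black crosses mark Stra8 where no test was made, from -1.18 in rCdx2-OE to -8.09 in R12.

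Stra8 was far lower in the mutants than with either intact protein, the contrast by which it was chosen. It was at 0.111 CPM in the lowest mutant library, 0.737 at the median and 1.67 in the highest, with 2 to 33 counts per library. All 14 lay below the 4 libraries of mCdx2-OE and rCdx2-OE, and the mutant mean was 39.5-fold below that of rCdx2-OE. R123 carries all of the mouse-specific changes in the DNA-binding domain, as mCdx2 does. Stra8 was at 0.894 and 0.848 CPM in R123, against 18.8 and 15.0 in mCdx2-OE. What sets Stra8 in the mutant libraries apart from both intact proteins was not tested. Log2 fold changes against WT ran from -8.09 in R12 to -5.52 in R13, and no p is given for them. Ddx4, Mael and Piwil2 likewise had all 14 mutant libraries below all 4, which 17.2% of all genes tested had, and no gene of the 10 had all 14 above, which 13% had. In the mutant means Ddx4 was 1.92-fold, Mael 2.44-fold and Piwil2 2.05-fold below rCdx2-OE. Sycp1 (2.31-fold below), Tex101 (1.32-fold below), Dazl (1.22-fold below) and Sycp3 (1.02-fold below) were not separated in this way. Nor were Hormad1 and Dppa3, whose mutant means lay above that of rCdx2-OE, by 0.49 and 0.40 on the log2 scale.

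Of the 10 genes, Dppa3, Dazl and Sycp3 had all 8 mutant libraries with the asparagine deletion (change 3) above all 6 without it. This separation was found in 9.51% of all genes. Stra8 had it too, but mutant libraries entered its choice, so it is not set beside that share. No gene lay below, as 10.0% of all did. Dppa3 ran from 77.1 through 93.4 to 103 CPM with the deletion and from 50.7 through 57.6 to 62.4 without it. Dazl ran from 31.9 through 42.1 to 56.4 against 16.8 through 25.8 to 30.6, and Sycp3 from 4.50 through 5.88 to 7.98 against 2.86 through 3.52 to 4.30. Stra8 ran from 0.731 through 0.769 to 1.67 against 0.111 through 0.334 to 0.444. Cdx2 itself moved with the deletion, from 37.2 through 53.1 to 94.4 CPM with it and 60.6 through 107 to 147 without it, and its part in these differences was not tested. Stra8 rested on only 2 to 33 counts per mutant library. The 8 and 6 libraries hold 2 of each mutant, so they are not all separate constructs. These levels are given as a description, and the effect of the deletion was not tested.

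Markers of other cells also moved with the groups. Over all genes tested, 18.4% were called higher and 15.0% lower in mCdx2-OE. Summed levels of the feeder fibroblast markers, of which 7 were listed in both tables, were 35.7 to 36.9 CPM in WT, 16.1 to 19.7 in mCdx2-OE and rCdx2-OE, with Dcn and Lum at 0, and 2.81 to 7.83 in the mutants, with Lum at 0. Of the 6 tested, 4 fell and 1 rose in mCdx2-OE, among them Col1a2 at -4.47 (SE 0.38, edgeR adjusted p = 9.78e-08), Col1a1 at -2.83 (SE 0.25, adjusted p = 4.20e-08) and Pdgfrb at 1.59 (SE 0.19, adjusted p = 1.23e-06). Naive pluripotency markers summed to 2620 to 2645 CPM in WT, 2673 to 3018 with intact Cdx2 and 3256 to 3944 in the mutants, and trophoblast markers to 208, 692 to 948 and 232 to 365. Of 9 naive markers 1 fell in mCdx2-OE, Klf2 at -1.16. Of 12 trophoblast markers 8 rose, led by Cdx2, the gene of the construct, and then by the keratins Krt7 at 5.35 and Krt18 at 4.68. The summed levels leave out Cdx2. The part of these shifts in the germline genes was not tested.

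Of 11 genes of the machinery that writes, copies and removes DNA methylation, 2 rose (18.4% of all genes) and 4 fell (15.0%) in mCdx2-OE. Their median was -0.77 on the log2 scale against -0.03 for all genes. The de novo methylation genes fell, Dnmt3b by 2.11 (SE 0.09, edgeR adjusted p = 9.16e-12), Dnmt3a by 1.80 (SE 0.09, adjusted p = 6.93e-11) and their cofactor Dnmt3l by 2.28 (SE 0.12, adjusted p = 7.37e-11). The oxidases Tet3 (2.42, SE 0.11, adjusted p = 1.06e-11) and Tet2 (1.36, SE 0.07, adjusted p = 6.62e-11) rose. In R123, Dnmt3l was at -5.46, Dnmt3b at -2.29 and Dnmt3a at -2.25, and R1 had -2.92, -1.09 and -2.45. Of 18 PRC1.6 and G9a repressor genes 1 rose and 2 fell, Yaf2 at 1.87 (SE 0.18, adjusted p = 1.67e-07), Pcgf6 at -1.16 (SE 0.06, adjusted p = 8.61e-11) and L3mbtl2 at -1.12 (SE 0.09, adjusted p = 1.25e-08), with a median of -0.35.

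Retinoic acid induces Stra8 in germ cells, and its genes moved in both directions. Of 14 tested, 4 rose (18.4% of all genes) and 2 fell (15.0%) in mCdx2-OE, with a median of 0.75. Dhrs3, a retinoid reductase, rose by 3.39 (SE 0.25, edgeR adjusted p = 4.85e-09) and the receptor Rarb by 2.81 (SE 0.23, adjusted p = 1.97e-08). The receptors Rarg (-2.03, SE 0.09, adjusted p = 2.19e-11) and Rara (-1.37, SE 0.11, adjusted p = 1.20e-08) fell. In R123 Rarb was at -0.34 and not called (adjusted p = 0.374), Dhrs3 rose by 1.99 and Rarg was at -3.44.

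Other germline genes were split. Of 30 tested in mCdx2-OE, 9 rose (18.4% of all genes) and 5 fell (15.0%), with a median of 0.05. Brdt, a testis bromodomain protein, rose by 2.73 (SE 0.24, edgeR adjusted p = 4.13e-08), the piRNA factor Tdrkh by 1.95 (SE 0.27, adjusted p = 7.21e-06) and Taf7l, a germ cell transcription factor subunit, by 1.81 (SE 0.20, adjusted p = 5.01e-07). Dnd1, an RNA-binding protein of primordial germ cells, was at -2.46 (SE 0.26, adjusted p = 4.30e-07), the synaptonemal complex gene Syce2 at -1.41 and the piRNA gene Tdrd12 at -1.36. Of 10 genes of primordial germ cell specification none rose and 4 fell, among them Dnd1, Pou5f1 (-1.47, SE 0.23, adjusted p = 3.02e-05) and Prdm1 (-1.26, SE 0.15, adjusted p = 1.14e-06). In R1, 1 of the 30 other germline genes rose and 5 fell, where 10.1% and 13.1% of all genes did. In R123, 5 rose and 4 fell, where 14.0% and 14.9% of all genes did.

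The genes most like Stra8 over the 20 mESC libraries, by Pearson r of log2 CPM among 11898 genes, were Hunk (0.980), Halr1 (0.974), Inppl1 (0.965), Ccdc88b (0.958) and Ddit4 (0.957). Halr1 went from a mean of 27.9 CPM in WT to 18.6 in mCdx2-OE, 16.5 in rCdx2-OE and 4.73 in the mutants, whereas Inppl1 was at 94.9, 94.4 and 102 in WT, mCdx2-OE and rCdx2-OE and at 53.6 in the mutants. The libraries fall into WT, intact and mutant groups, so these correlations mostly describe the steps between groups and share the depth gap of WT. Ranked by Spearman rho, the leading 5 genes were others, with 0 shared.

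In RMES cells the mCdx2-OE and rCdx2-OE libraries were pooled as 1 group against the libraries labelled WT, as the study did. With a construct, Stra8, Mael, Sycp3 and Dppa3 rose and Dazl and Piwil2 fell on the mouse allele, which is 4 of 10 higher (28.3% of all genes) and 2 lower (16.1%). On the rat allele Stra8, Tex101, Sycp3, Sycp1 and Mael rose and Dazl and Dppa3 fell, which is 5 of 10 higher (28.3%) and 2 lower (14.2%). Without the fold threshold 81.9% of all genes were called on the mouse allele and 82.5% on the rat allele. CPM was normalised within each allele's table, so levels are compared between libraries and not between alleles.

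Stra8 had 2 and 0 counts on the mouse allele of the RMES libraries labelled WT and 230 and 269 in mCdx2-OE and rCdx2-OE, that is 5.48 and 6.43 CPM. The ratio of construct to WT was 203 (95% counting interval 56.0 to 1684, exact). On the rat allele it had 8 and 5 counts in the libraries labelled WT and 481 and 494 with a construct, or 0.293 and 0.167 against 12.8 and 12.9 CPM. It rose by 5.80 on the log2 scale (SE 0.25, edgeR adjusted p = 1.14e-11), and the fitted change on the mouse allele was 7.51 (SE 0.45, adjusted p = 6.80e-09). The latter value rests on the 2 counts of the first library labelled WT, and was 10.89 without that library and 6.51 without the second. The response of the mouse allele was not called different from that of the rat allele (difference 1.67, 95% interval -0.18 to 3.53, adjusted p = 0.13), and this difference was 4.54 without the first library labelled WT and 1.08 without the second, again with no call.

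Dazl was at 479 and 463 CPM on the mouse allele of the libraries labelled WT, and at 181 in mCdx2-OE and 118 in rCdx2-OE. On the rat allele it was at 12.7 and 12.1 against 5.60 and 4.28. It fell by 1.65 and 1.33 (SE 0.14 and 0.15). Ddx4 was at 61.7 and 59.3 CPM against 68.9 and 63.4 on the mouse allele, and 19 and 18.4 against 15.7 and 16.1 on the rat allele, with differences of 0.13 and -0.24 under the fold threshold. Piwil2 dropped from 296 and 278 CPM to 68.4 and 67.1 on the mouse allele (-2.08, SE 0.06, edgeR adjusted p = 1.41e-11). On the rat allele it was at 22.9 and 24.3 against 27.1 and 27.0, and it was not called (0.19).

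Mael rose on both alleles, from 6.85 and 7.58 CPM to 32.6 and 28.3 on the mouse allele and from 0.622 and 0.801 to 2.37 and 2.53 on the rat allele. Its changes were 2.07 (SE 0.11) and 1.78 (SE 0.29). Sycp3 rose from 2.68 and 2.76 to 10.2 and 9.66, and from 0.951 and 0.834 to 7.65 and 9.01, by 1.87 (SE 0.15) and 3.22 (SE 0.21). Sycp1 rose on the rat allele, from 0.585 and 0.601 to 2.61 and 2.43 (2.08, SE 0.29, edgeR adjusted p = 8.01e-06). On the mouse allele it was at 27.8 and 27.7 against 41.9 and 39.5, and its difference of 0.55 was under the fold threshold. Hormad1 was called on neither allele, with 18.8 and 19.4 against 13.9 and 10.6 on the mouse allele (-0.64) and 1.10 and 1.70 against 2.29 and 1.70 on the rat allele (0.50).

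Tex101 rose on the rat allele from 5.48 and 5.81 CPM to 138 and 110, a change of 4.46 (SE 0.12, edgeR adjusted p = 6.91e-14). On the mouse allele it was at 0.925 and 0.725 against 1.48 and 1.05 (0.62, adjusted p = 0.0866), with no overlap. Dppa3 moved in opposite directions on the alleles, from 10.1 and 8.89 to 30.9 and 29.2 on the mouse allele (1.66, SE 0.10, adjusted p = 7.12e-09) and from 485 and 498 to 158 and 138 on the rat allele (-1.73, SE 0.07, adjusted p = 7.24e-12).

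**Figure D3:**
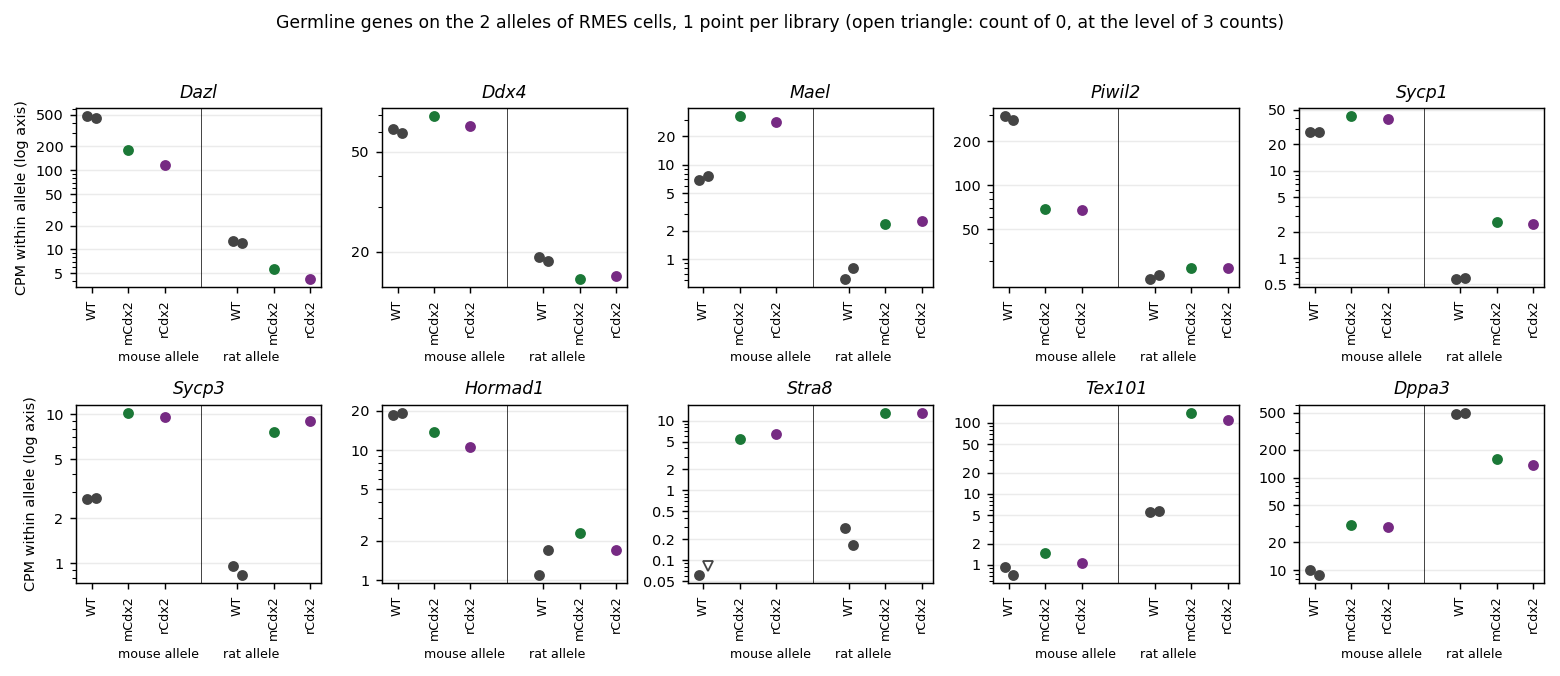
Levels of the 10 genes on the mouse and the rat allele of RMES cells, in CPM within each allele's table on a log axis, with 1 point per library and an open triangle at the floor of 3 counts for a count of 0. Tex101 reaches 138 and 110 CPM on the rat allele with a construct, a log2 change of 4.46 there, against a change of 0.62 on the mouse allele that was not called. Levels are compared between libraries and not between alleles.

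The response of the mouse allele against that of the rat allele was tested in the same libraries as an interaction. It is given as the log2 change on the mouse allele minus that on the rat allele, and it was called in 8 of the 10 genes, above 0 in 2 (30.3% of 13605 genes) and below 0 in 6 (31.8%). The difference was 3.38 for Dppa3 (SE 0.07, edgeR adjusted p = 1.25e-21) and 0.34 for Ddx4 (SE 0.09, adjusted p = 0.00219), both of which had changes above 0 on the mouse allele and below 0 on the rat allele, for Ddx4 without a call on either. Tex101 (-3.86, SE 0.31, edgeR adjusted p = 1.32e-10), Sycp1 (-1.55, SE 0.26, adjusted p = 1.78e-05) and Sycp3 (-1.38, SE 0.28, adjusted p = 0.000142) had smaller changes above 0 on the mouse allele than on the rat allele, without a call on the mouse allele for Tex101 and Sycp1. Piwil2 (-2.30, SE 0.06, adjusted p = 8.92e-20) and Dazl (-0.36, SE 0.08, adjusted p = 0.000554) fell on the mouse allele, Dazl by more than on the rat allele, where Piwil2 was not called. Hormad1 (-1.16, SE 0.24, adjusted p = 0.000238) lay below 0 on the mouse allele and above 0 on the rat allele, with a call on neither. Dazl lost this call without the rCdx2-OE library, at -0.25. Mael (0.27, adjusted p = 0.451) was not called. The same test was passed by 62.1% of all genes, so 8 of 10 is not read as particular to these genes.

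Related genes moved in RMES cells too. Over all genes tested, 28.3% were called higher and 16.1% lower on the mouse allele, and 28.3% and 14.2% on the rat allele. Of the other germline genes 17 of 33 rose and 3 fell on the mouse allele (median 1.13 against 0.08 for all genes), and 17 of 32 rose and 4 fell on the rat allele (1.29 against 0.07). Retinoic acid genes rose in 9 of 15 and fell in 1 on the mouse allele (median 1.59), and rose in 10 of 16 and fell in 2 on the rat allele (1.55). Rarb rose by 5.31 and 4.06, and Dhrs3 by 2.63 and 2.76. Of 18 PRC1.6 and G9a repressor genes 5 fell on the mouse allele and 6 on the rat allele, and none rose. DNA methylation genes fell in 3 and 5 of 11 and rose in 0 and 1. Genes of primordial germ cell specification fell in 3 and 5 of 10 and rose in 1 and 2. Naive pluripotency markers summed to 4805 to 4816 CPM in the libraries labelled WT against 2401 to 2429 with a construct on the mouse allele, and 2513 to 2560 against 1111 to 1169 on the rat allele. Feeder markers summed to 24.1 to 28.6 against 18.0 to 22.3 on the mouse allele and 24.2 to 30.5 against 31.0 to 38.4 on the rat allele, with Dcn at 0 in each. The part of these shifts was not tested.

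Chromatin data came from 1 library per condition, so they carry no test. All 10 genes had an ATAC peak within 30 kb of the start (98.6% of 15817 genes) and 9 had one over the promoter, from 1000 bases before to 500 after the start (87.7%), with Tex101 the exception. Counts below were scaled to equal totals before the log2 ratio of mCdx2-OE to WT, with 1 added. At the promoter, the ratio was 1.49 for Sycp1 (28 counts in WT and 109 in mCdx2-OE), 0.79 for Ddx4, 0.76 for Hormad1 and 0.58 for Dazl. It was 0.48 for Mael, 0.27 for Piwil2, -0.02 for Sycp3 and -1.40 for Stra8 (15 and 7 counts). Both promoter peaks of Dppa3 were lower (-0.61 at 59 bases and -1.27 at -1466). The median over all ATAC peaks was -0.14. The share of all promoter peaks that were higher was not computed, so these values are not read against the RNA changes. Of 53 ATAC peaks near the genes, 8 were over 2-fold higher (16% of all peaks) and 16 over 2-fold lower (21.2%).

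Cdx2 ChIP peaks lay within 30 kb of 8 of the 10 genes in mESCs (76.7% of genes) and of the same number in RMES cells (65.3%), with Dazl and Tex101 the exceptions in both. None lay over a promoter, where 5.65% and 3.41% of genes had one. Within 5 kb, 5 genes had a peak in mESCs (29.0%) and 4 in RMES cells (21.1%). Between mCdx2-OE and rCdx2-OE, 0 of 23 peaks in mESCs (0.912% of all) and 1 of 16 in RMES cells (2.08%), near Dppa3, were over 2-fold apart. Which count belongs to which construct was read from the first letter of each column name. Of the 23, 12 held a Cdx motif (TTTATTG or TTTATGG, either strand) in the 201 bases around the centre, 52.2% against 36.0% of 91665 ChIP peaks and 7.38% of ATAC peaks.

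**Figure D4:**
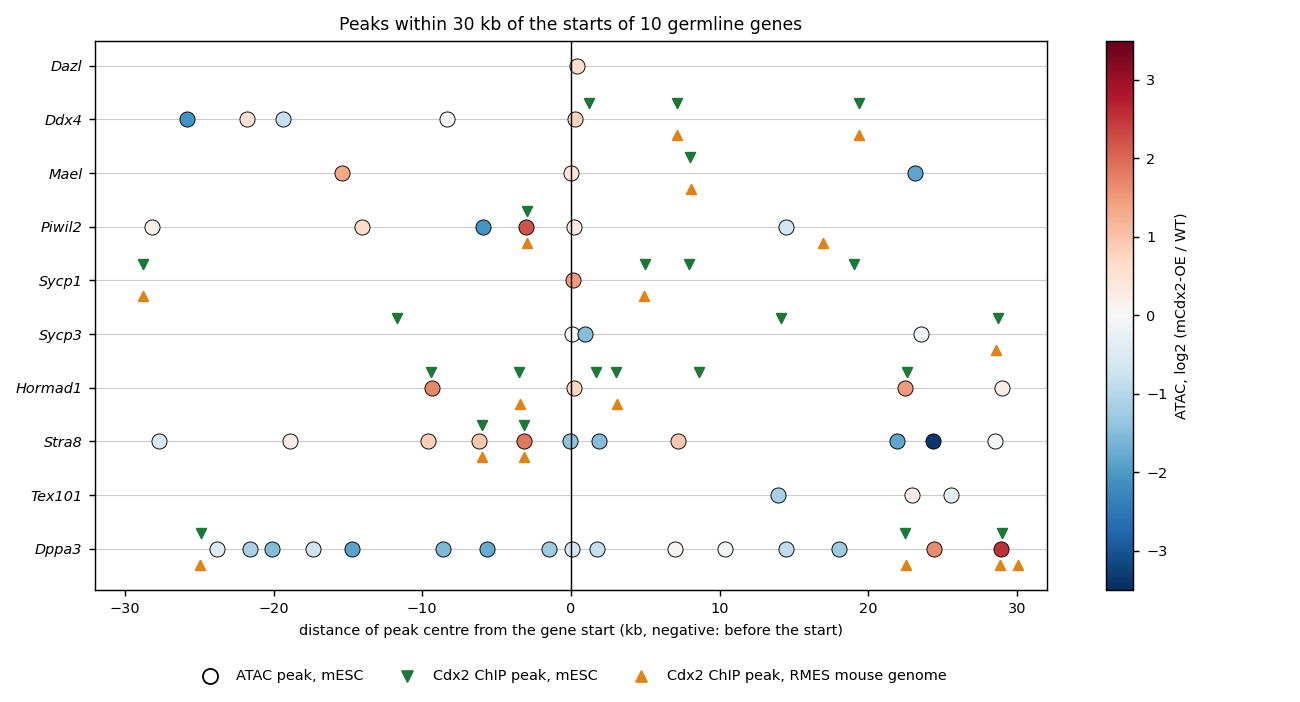
Peaks within 30 kb of the starts of the 10 genes, by distance of the peak centre from the start in kb, with ATAC peaks coloured by the log2 ratio of mCdx2-OE to WT and triangles for Cdx2 ChIP peaks in mESCs and on the mouse genome of RMES cells. Both ChIP peaks of Stra8, at -5983 and -3126 bases, sit on ATAC peaks that are higher in mCdx2-OE, while the promoter peak at -50 is lower.

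At Stra8 the sequences around both ChIP peaks are shown because Cdx2 peaks were called there while the gene's RNA fell in mESCs and rose in RMES cells. The peak at -5983 had 132 counts with mCdx2 and 119 with rCdx2 in mESCs, and 54 and 43 in RMES cells. The peak at -3126 had 81 and 71 in mESCs and 29 and 26 in RMES cells. The ATAC peaks at these sites went from 54 counts to 141 (log2 0.94) and from 10 to 53 (1.88), whereas peaks at 1896 bases after the start (46 to 21, -1.52) and at 24373 bases (31 to 3, -3.38) were lower. The printed windows of 201 bases, chr6:34914080-34914280 and chr6:34916937-34917137 on the plus strand of GRCm38.p6, carry the Cdx motif on the minus strand, in capitals.
Stra8 peak at -5983: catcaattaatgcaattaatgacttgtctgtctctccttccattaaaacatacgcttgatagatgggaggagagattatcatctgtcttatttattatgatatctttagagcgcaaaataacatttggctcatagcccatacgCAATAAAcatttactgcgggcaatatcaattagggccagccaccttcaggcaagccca
Stra8 peak at -3126: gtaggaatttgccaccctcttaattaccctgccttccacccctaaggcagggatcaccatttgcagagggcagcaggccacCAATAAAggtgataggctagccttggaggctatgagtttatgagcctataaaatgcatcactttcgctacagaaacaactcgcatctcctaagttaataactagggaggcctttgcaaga

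Piwil2 had a ChIP peak at -2981 over an ATAC peak that went from 3 counts to 23 (log2 2.21), and Hormad1 had peaks at -3467, 1697 and 3051. The Dppa3 ChIP peak at 29022, with 266 and 284 counts, lay on an ATAC peak that went from 8 counts to 68 (2.53). The 3 ATAC peaks of Tex101 ran from -1.14 to 0.16, and none lay within 5 kb. Gene starts here are those of GENCODE, and the RefSeq starts of Stra8 and Tex101 differ, so the promoter windows of these genes and their nearest peaks are not at the same place.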

How the data were processed

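RNA-seq, ATAC-seq and ChIP-seq were measured in 30 libraries. Per the labels, RNA libraries were stranded polyA libraries, and the submitters' processing notes name STAR 2.7.0d, Bowtie2 2.3.4.3, MACS2, cutadapt 2.6 and Picard 2.6.0 with mm10 and rn6. The deposited values are counts, which the authors made per gene or per peak, with RMES reads assigned to mm10 or rn6 by edit distance. ATAC and ChIP peaks were called by the authors on merged libraries. Peaks on the rat genome of RMES cells were not used here. No column of other samples was used.

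Counts of both mESC replicate tables were joined on the 19919 genes they share. Genes were filtered with filterByExpr and normalised by TMM in edgeR 4.0.16 (limma 3.58.1, R 4.3.3), which left 16000 genes in mESCs, 16887 on the mouse allele, 14627 on the rat allele and 13605 for the allele interaction, in which library was a block. All 10 genes passed each filter. Tests were quasi-likelihood F tests in edgeR, with p-values adjusted by the Benjamini-Hochberg method over all genes tested, and a call needed an adjusted p under 0.05 and, against WT, a fold change over 2. All 20 mESC libraries shared 1 estimate of the spread. SEs were derived from the fold change and its F statistic, and 95% intervals from the SEs. CPM uses TMM-scaled totals, and RPKM divides it by gene length. DESeq2 1.42.0 was an alternative, as were other scaling, no filter, no fold threshold, a replicate block, fewer libraries and each library left out. Python 3.11.15 and matplotlib 3.10.9 were used for peaks, promoters and plots. Scripts were tested on simulated data.

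The genes and lists were chosen with earlier results of these data known. Genes named besides them were the 3 largest rises and falls called in mCdx2-OE from each list, with a mean of at least 50 counts and the same direction in both replicates, and the 5 most like Stra8. Replicate numbers were not treated as pairs in the main fit. Correlations of same-numbered deviations between conditions ran from -0.14 to 0.45. Those with WT were all below 0, and the highest was between mCdx2-OE and rCdx2-OE, so a possible pairing in that comparison was left out of its main test. Intervals on counts cover counting error only. Depth was 36166038 to 41418817 counts on the mouse allele and 29453412 to 35249756 on the rat allele.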

Additional observations from a re-analysis of the deposited data

Results flagged for a closer look

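On the alleles of RMES cells, the log2 response to Cdx2 constructs differed between mouse and rat in 8 of the 10 genes, by the interaction test, which 62.1% of 13605 genes passed, so the count is not read as particular to these genes. The mouse response minus the rat response was -0.36 for Dazl, 0.34 for Ddx4, -1.55 for Sycp1, -1.38 for Sycp3, -3.86 for Tex101, -2.30 for Piwil2, -1.16 for Hormad1 and 3.38 for Dppa3. The RMES libraries labelled WT held Cdx2 reads, so each response is relative to those libraries.

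In 4 genes every library with a construct moved one way against WT in mCdx2-OE mESCs and the other way on the mouse allele of RMES cells, a pattern that 2939 of 15370 genes (19%) had. The log2 change in RMES cells minus that in mESCs was 9.30 for Stra8, -3.37 for Dazl, -2.47 for Piwil2 and -1.70 for Hormad1. Piwil2 was not called in mESCs and Hormad1 was not called in RMES cells, at the fold threshold, and the value of Stra8 rests on 2 and 0 counts in the RMES libraries labelled WT. These differences between mESCs and RMES cells were not tested, since the tables were normalised separately.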

How the results depend on the processing

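Of 391 counts of calls or peaks recomputed under the alternatives, 350 stayed within 1.5 times the reported count and 41 moved beyond it. Of 1176 values for single genes, 1099 kept their direction and side of the threshold, 13 lost a call, 37 gained one and 27 changed sign.

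Without the fold threshold the genes called against WT were 11158 in mCdx2-OE, 11294 in rCdx2-OE, 9728 in R1, 9743 in R2, 10189 in R3, 9870 in R12, 10477 in R13, 10635 in R23 and 10682 in R123 in mESCs, and 13823 and 12069 on the mouse and rat alleles of RMES cells. Among the germline genes it gave 8 higher in rCdx2-OE, 3 higher and 1 lower in R1, 5 higher and 1 lower in R2, 4 higher and 1 lower in R3, and 1 lower in each of R12, R13, R23 and R123. In R1, 1 gene was called higher with only the 4 libraries compared. Between mCdx2-OE and rCdx2-OE 3 of 16000 genes were called, against 1 with no filter on low counts, 21 by DESeq2 and 0 with only the 4 libraries compared, and 0 to 1 when a replicate was left out. Leaving out a replicate gave 3 to 5 genes higher in mCdx2-OE, 0 to 1 in R1 and 1 to 2 in R2.

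The replicate number as a block gave 1 gene called higher in R1, 1 gene called between mCdx2-OE and rCdx2-OE, and -0.0026 for Mael in R2, and changed no other count beyond 1.5 times. With the WT numbers crossed, chosen after seeing the data, no count of calls moved beyond 1.5 times.

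Mael in R2 was 0.00 and became -0.022 with no filter, -0.0041 by DESeq2 and -0.0036 with the numbers crossed, and Ddx4 between mCdx2-OE and rCdx2-OE became -0.0041 with no filter. With a replicate left out, the log2 differences between mCdx2-OE and rCdx2-OE ran from -0.45 to 0.11 for Dazl, -0.082 to 0.086 for Ddx4, -0.27 to 0.056 for Mael, -0.49 to 0.47 for Sycp1, -0.24 to 0.33 for Sycp3 and -0.11 to 0.62 for Hormad1. Against WT they ran for Mael from -0.43 to 0.27 in R2, -0.087 to 0.15 in R13 and -0.020 to 0.12 in R23, for Tex101 from -1.26 to 0.28 in R13 and -0.85 to 1.38 in R123, for Sycp3 from -0.090 to 0.48 in rCdx2-OE, -0.57 to 0.0031 in R1 and -0.0042 to 0.19 in R3, and for Ddx4 from -0.059 to 0.31 in R3. Tex101 rested on 3 to 26 counts in the libraries with a construct, and Stra8 on 2 to 33 counts in the mutants, so depth limits both. Stra8 in RMES cells ran from 6.51 to 10.89 on the mouse allele and from 1.08 to 4.54 between alleles when a library was left out.

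The genes most like Stra8 by Spearman rho shared 0 of 5 with those by Pearson r. Without scaling, 15 ATAC peaks near the genes were over 2-fold higher in place of 8, and 0 RMES ChIP peaks were over 2-fold apart in place of 1, as with 5 added before logarithms (0). Within 5 kb in place of 30 kb, 5 genes had a ChIP peak in mESCs and 4 in RMES cells. The cause of these shifts was not tested. A lone library left in a group was assumed to vary like the other groups.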
